A study of Mus musculus with 9 samples.

Results

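The variable segments of the alpha and beta chains of the T cell receptor were examined in bulk RNA of CD4 T cells from tumours. They were taken as all rows of the count table whose symbol starts with Trav (alpha chain, 129 rows) or Trbv (beta chain, 34 rows), 163 of 45808 genes. The libraries came from C57BL/6J mice carrying tumours of MC38, a transplanted mouse colon adenocarcinoma line, on day 12 after injection. CD4 T cells bearing ICOS, a costimulatory receptor of activated T cells, were sorted from the tumours of individual mice, and the groups were 3 Control mice, 3 mice given anti-CTLA-4 and 3 mice given anti-PD-1. The treatment of the Control mice, the antibody clones and doses, the ages of the mice and the number of cells sorted were not given in the sources used here. Because little RNA was obtained, the libraries were made with an amplification kit intended for single cells and read from both ends over 76 bases.

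A T cell assembles its alpha chain from a variable and a joining segment and its beta chain from a variable, a diversity and a joining segment, each followed by a constant region. The variable segment encodes most of the outer domain of the chain, including the first 2 loops that contact antigen and the major histocompatibility complex, and ends just after the cysteine at which the third, hypervariable loop begins. A T cell as a rule expresses 1 beta chain and sometimes more than 1 alpha chain, and its daughters inherit the rearrangement, so the segments used in a population reflect its clones. In C57BL/6 mice the alpha locus contains repeated blocks, whose copies carry a d or an n after the family number in the symbol.

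The sequences below are the 3' ends of the 12 segments that ranked first in a library, together with Trav6-4, a copy of Trav6d-4 that made up more than 20% of the alpha counts in 1 mouse. They are shown because the third loop, formed by rearrangement, starts here and because the families differ at these bases. Each stretch is the last 60 coding bases of the segment in its final annotated exon, plus strand, GRCm38 with the GENCODE M21 annotation, and the codon in capitals is that of the conserved cysteine. The alpha segments, in the order of the locus on chromosome 14, were as follows.
Trav6d-4 (chr14:52753787-52753846): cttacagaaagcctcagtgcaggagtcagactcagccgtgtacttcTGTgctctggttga
Trav6-4 (chr14:53454725-53454784): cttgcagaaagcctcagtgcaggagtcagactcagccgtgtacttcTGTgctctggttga
Trav8-1 (chr14:53470173-53470232): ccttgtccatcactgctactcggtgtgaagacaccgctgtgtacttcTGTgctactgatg
Trav15-1-dv6-1 (chr14:53560188-53560247): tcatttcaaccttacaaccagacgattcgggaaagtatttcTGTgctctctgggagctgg
Trav9-2 (chr14:53591455-53591514): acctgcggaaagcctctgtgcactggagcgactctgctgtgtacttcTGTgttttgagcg
Trav4-3 (chr14:53599351-53599410): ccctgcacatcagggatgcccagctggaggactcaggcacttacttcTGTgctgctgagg
Trav12-2 (chr14:53616855-53616914): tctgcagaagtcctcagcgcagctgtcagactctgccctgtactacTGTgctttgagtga
Trav5-4 (chr14:53704455-53704514): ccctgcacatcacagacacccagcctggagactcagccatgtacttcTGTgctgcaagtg
The beta segments, in the order of the locus on chromosome 6, were as follows.
Trbv3 (chr6:41048769-41048828): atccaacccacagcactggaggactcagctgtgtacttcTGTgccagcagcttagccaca
Trbv13-2 (chr6:41121773-41121832): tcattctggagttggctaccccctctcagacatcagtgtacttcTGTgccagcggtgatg
Trbv17 (chr6:41163497-41163556): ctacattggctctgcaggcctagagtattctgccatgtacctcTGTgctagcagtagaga
Trbv19 (chr6:41178989-41179048): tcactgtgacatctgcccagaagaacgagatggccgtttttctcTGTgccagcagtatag
Trbv20 (chr6:41188918-41188977): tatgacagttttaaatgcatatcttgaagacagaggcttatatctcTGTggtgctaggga
Trav6-4 and Trav6d-4, which differ at 9 of 347 coding bases, differ within the printed stretch only by G291A (base of Trav6-4, position counted from 1 at the start codon, base of Trav6d-4).

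The 9 libraries held 25530333 to 41508589 counts in genes, so that 3 counts, the limit that a count of 0 allows, correspond to 0.0723 to 0.118 counts per 1000000 gene counts (CPM). Intervals and limits given here cover counting error only. The library anti-CTLA-4 replicate 2 stood apart. Its summed level of 14 alpha beta T cell markers was 3248 CPM, against 6010 to 8425 CPM in the other 8, that of 10 macrophage and monocyte markers was 4052 CPM against 182 to 554, and that of 6 fibroblast or tumour cell markers was 1587 CPM against 42.5 to 309. It held 871 counts of Cd4 against 10078 to 24619 elsewhere, and 21 of Cd3e, a chain of the receptor complex, against 10797 to 29993. Other markers of the same list were not low there: its levels of Cd3d (696 CPM), Cd3g (649 CPM) and Trac (632 CPM) were the highest of the 9 libraries. Among its macrophage markers, Tyrobp (66636 counts) and Lyz2 (53057) were high, while Fcer1g, C1qa and C1qb had 2, 3 and 71 counts. Single T cell genes were low in other libraries too: Lck, the kinase that starts receptor signalling, had 154 counts in Control replicate 1 and 161 in anti-PD-1 replicate 2, against 5201 to 15891 in the remaining 7. Zap70, from the same list, had 5 counts in anti-CTLA-4 replicate 2 and 4 in anti-PD-1 replicate 2, against 3255 to 15152 elsewhere. Lat had 1 to 3 counts in anti-CTLA-4 replicates 2 and 3 and anti-PD-1 replicates 1 and 2, against 93 to 5785 elsewhere. The summed level of the 14 markers in anti-PD-1 replicate 2 was 7074 CPM.

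A segment was called detected in a mouse at 10 or more counts. By this rule 25 of the 163 segments were detected in at least 1 mouse, 18 of 129 Trav and 7 of 34 Trbv segments. Of the rest, 133 had no count in any library and 5 Trav segments had some counts but fewer than 10 in each library. GENCODE lists 129 of the 163 as functional genes and 33 as pseudogenes, and has no entry for Trav7d-6, which was at 0. None of the pseudogenes had a count. By family, 13 of 23 Trav and 6 of 30 Trbv families had a detected member.

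Most detected segments were detected in a single mouse. Of the 25, 15 were detected in exactly 1 mouse, 7 in 2 mice and 3 in 3 mice, and none in 4 or more of the 9. The 3 in 3 mice were Trav12-2, Trbv13-2 and Trbv3. The share of all genes detected in so few mice was not counted, so these numbers have no background to be read against. Genes outside the receptor were uneven between libraries too. Adgre1 had 2813 counts in Control replicate 2, 395 in anti-CTLA-4 replicate 2, 5577 and 3982 in anti-PD-1 replicates 2 and 3, and at most 3 elsewhere. Epcam had 1473 in anti-PD-1 replicate 1 and at most 1 elsewhere. By contrast, Cd28 had 20074 to 146915 in the 9 libraries. Of the 1467 values of 163 segments in 9 libraries, 1375 were 0, 54 lay between 1 and 9 and 38 were 10 or more, of which 32 reached 100. The values nearest the threshold were 7 counts (Trav14-1 in anti-CTLA-4 replicate 3) below it and 14 (Trav12-2 in the same library), 19 (Trbv19 in anti-PD-1 replicate 3) and 40 counts (Trav9-4 in anti-PD-1 replicate 3) above it. Of the 54 values between 1 and 9, 39 were a single count, and 47 were in segments that had 100 or more counts in another library.

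**Figure D1:**
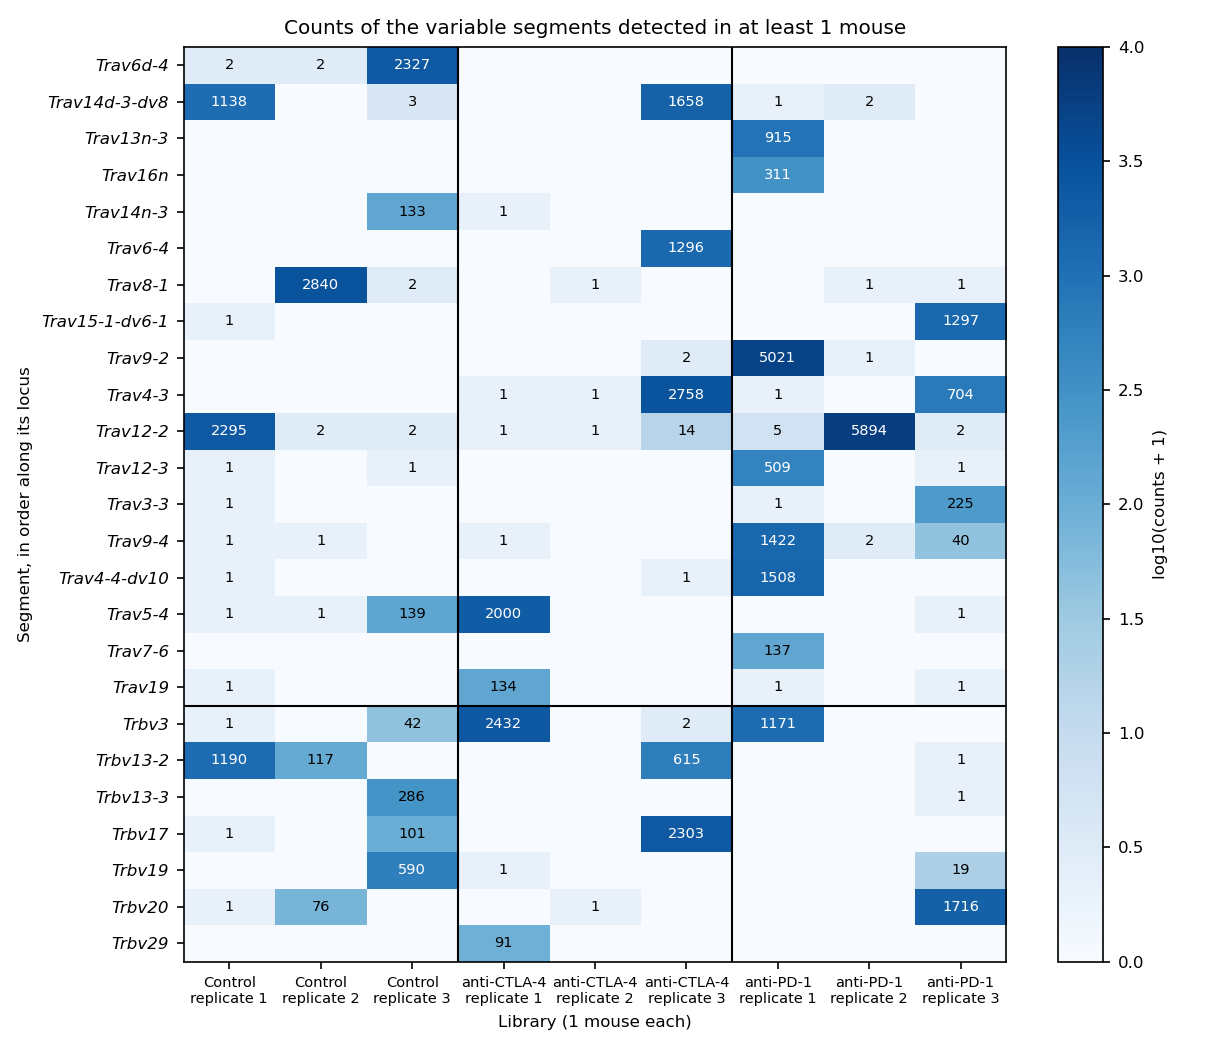
Counts of the 25 detected variable segments (rows, in the order of each locus) in the 9 libraries (columns, by group), on a logarithmic colour scale. Most rows hold 1 dark cell, and no row is dark in more than 3 columns.

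Among alpha segments, Trav12-2 (ENSMUSG00000096656, chromosome 14, 53616315 to 53616914) had the highest mean share of the alpha counts, 20.9% over the 8 libraries with at least 10 alpha counts. It had 2295, 2 and 2 counts in Control replicates 1 to 3, 1, 1 and 14 under anti-CTLA-4, and 5, 5894 and 2 under anti-PD-1. It was thus high in 1 Control and 1 anti-PD-1 mouse, at 66.7% and 99.9% of their alpha counts, and at 14 counts or fewer in the other 7. Trav8-1 (mean share 12.5%) had 2840 counts in Control replicate 2 and at most 2 in any other library. Trav5-4 (12.4%) had 2000 counts in anti-CTLA-4 replicate 1, 139 in Control replicate 3 and at most 1 elsewhere. Trav6d-4 (11.2%) had 2327 counts in Control replicate 3 and at most 2 elsewhere. Each of these 3 segments thus had nearly all its counts in a single mouse.

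Trav4-3 (mean share 9.88%) was high in 2 mice of different groups, with 2758 counts in anti-CTLA-4 replicate 3 and 704 in anti-PD-1 replicate 3, and had at most 1 elsewhere. Trav14d-3-dv8 (7.77%), a segment that can also join to the delta chain, had 1138 counts in Control replicate 1 and 1658 in anti-CTLA-4 replicate 3, against at most 3 elsewhere. Both were spread over groups. Trav15-1-dv6-1 (7.13%), also usable by the delta chain, had 1297 counts in anti-PD-1 replicate 3 and at most 1 elsewhere. Trav9-2 (6.39%) had 5021 counts in anti-PD-1 replicate 1 and at most 2 elsewhere. Trav6-4 (2.82%) had 1296 counts in anti-CTLA-4 replicate 3 and none in any other library. Trav9-4 (2.05%) was the only alpha segment detected in 2 mice of 1 group, with 1422 counts in anti-PD-1 replicate 1 and 40 in replicate 3, and at most 2 elsewhere. The other 8 detected alpha segments had 133 to 1508 counts in 1 mouse each, 5 of them in anti-PD-1 replicate 1.

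Of the 7 detected beta segments, 2 were detected in 1 mouse, 3 in 2 mice and 2 in 3 mice, against 13, 4 and 1 of the 18 alpha segments. Trbv3 (ENSMUSG00000076463, chromosome 6, 41048290 to 41048828; mean share 28.7% over the 7 libraries with at least 10 beta counts) had 1, 0 and 42 counts in the Control mice, 2432, 0 and 2 under anti-CTLA-4, and 1171, 0 and 0 under anti-PD-1. Trbv13-2 (ENSMUSG00000076469, chromosome 6, 41121396 to 41121832; 25.9%) had 1190, 117 and 0 counts in the Control mice, 0, 0 and 615 under anti-CTLA-4, and 0, 0 and 1 under anti-PD-1. For both, the range of counts in the Control mice overlapped that under anti-CTLA-4, and both had libraries at 0 or 1 in all 3 groups. Trbv20 (19.8%) had 1716 counts in anti-PD-1 replicate 3, 76 in Control replicate 2 and at most 1 elsewhere. Trbv17 (12.7%) had 2303 counts in anti-CTLA-4 replicate 3, 101 in Control replicate 3 and at most 1 elsewhere. Trbv19 (8.43%) had 590 counts in Control replicate 3, 19 in anti-PD-1 replicate 3 and at most 1 elsewhere. Trbv13-3 (286 counts in Control replicate 3) and Trbv29 (91 counts in anti-CTLA-4 replicate 1) were each detected in 1 mouse.

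Among libraries with at least 10 counts of a chain, 1 segment held over 50% of it in 7 of 8 for Trav and 7 of 7 for Trbv. Over the 8 libraries with at least 10 alpha counts (2138 to 9833), the leading Trav segment held 48.1% to 99.9% of the alpha counts, and over the 7 with at least 10 beta counts (193 to 2920) the leading Trbv segment held 57.9% to 100%. The leader exceeded 90% in 3 of 8 alpha and 4 of 7 beta libraries. The 8 alpha leaders were 7 different segments, Trav12-2 appearing in 2 mice, and the 7 beta leaders were 5, with Trbv3 and Trbv13-2 in 2 mice each. Dividing by exon length left the leader the same in 15 of 15 cases.

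In the Control mice, the alpha leaders were Trav12-2 in replicate 1 (66.7%, Wilson 95% interval 65.1 to 68.2), Trav8-1 in replicate 2 (99.8%, 99.5 to 99.9) and Trav6d-4 in replicate 3 (89.1%, 87.9 to 90.3). The second segment of replicate 1 was Trav14d-3-dv8 at 33.1%. Their beta leaders were Trbv13-2 in replicate 1 (99.7%, 99.3 to 99.9) and replicate 2 (60.6%, 53.6 to 67.2) and Trbv19 in replicate 3 (57.9%, 54.8 to 60.9). Control replicate 2, at 193 beta counts the shallowest of those given shares, divided the chain between Trbv13-2 and Trbv20 (39.4%), and replicate 3 between Trbv19, Trbv13-3 (28.1%), Trbv17 (9.91%) and Trbv3 (4.12%). Each Control mouse therefore had a different alpha leader, while replicates 1 and 2 shared their beta leader.

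Under anti-CTLA-4, replicate 1 was led by Trav5-4 (93.5%, Wilson 95% interval 92.4 to 94.5) and Trbv3 (96.4%, 95.6 to 97.0). Replicate 3 was led by Trav4-3 (48.1%, 46.8 to 49.4), with Trav14d-3-dv8 at 28.9% and Trav6-4 at 22.6%, and by Trbv17 (78.9%, 77.4 to 80.3), with Trbv13-2 at 21.1%. Replicate 2, the library described above as standing apart, had 3 Trav counts and 1 Trbv count in all and no detected segment; the part of its marker levels in this was not tested. Its Cd3d, Cd3g and Trac levels were the highest of the 9 libraries. The 2 mice with segment counts shared no detected segment of either chain.

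Under anti-PD-1, replicate 1 had the most alpha counts of the 9 libraries (9833, 385 CPM) and the most detected Trav segments (7), led by Trav9-2 (51.1%, Wilson 95% interval 50.1 to 52.1) and followed by Trav4-4-dv10 (15.3%) and Trav9-4 (14.5%). Its beta counts were all Trbv3, 1171 of 1171. Replicate 2 had 5894 of its 5900 alpha counts in Trav12-2 and no Trbv count, which allows at most 0.0906 CPM. That library also had few counts of Lck, Zap70 and Lat, as given above, and a link between these was not tested. Replicate 3 was led by Trav15-1-dv6-1 (57.0%, 54.9 to 59.0), with Trav4-3 at 30.9%, and by Trbv20 (98.8%, 98.2 to 99.2). The 3 anti-PD-1 mice had 3 different alpha leaders, and the 2 with beta counts had different beta leaders.

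Whether the antibodies changed the number of segments used was asked by counting detected segments per mouse. The means were 2 ± 1 Trav segments in Control, 2 ± 2 under anti-CTLA-4 and 4 ± 3 under anti-PD-1, and 2.33 ± 1.53, 1.33 ± 1.15 and 1 ± 1 Trbv segments (SD, n = 3 each). The ranges overlapped in every pair of groups, and the exact permutation test over the 3 groups gave p = 0.557 for Trav and p = 0.543 for Trbv (two-sided; both 0.694 after Benjamini-Hochberg adjustment over 6 such tests). The 3 mice of a group together used 6 different Trav segments in Control, 6 under anti-CTLA-4 and 11 under anti-PD-1, and 6, 4 and 3 Trbv segments. Without anti-CTLA-4 replicate 2, which had no detected segment, the exact permutation p was 0.593 for Trav and 0.5 for Trbv.

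**Figure D2:**
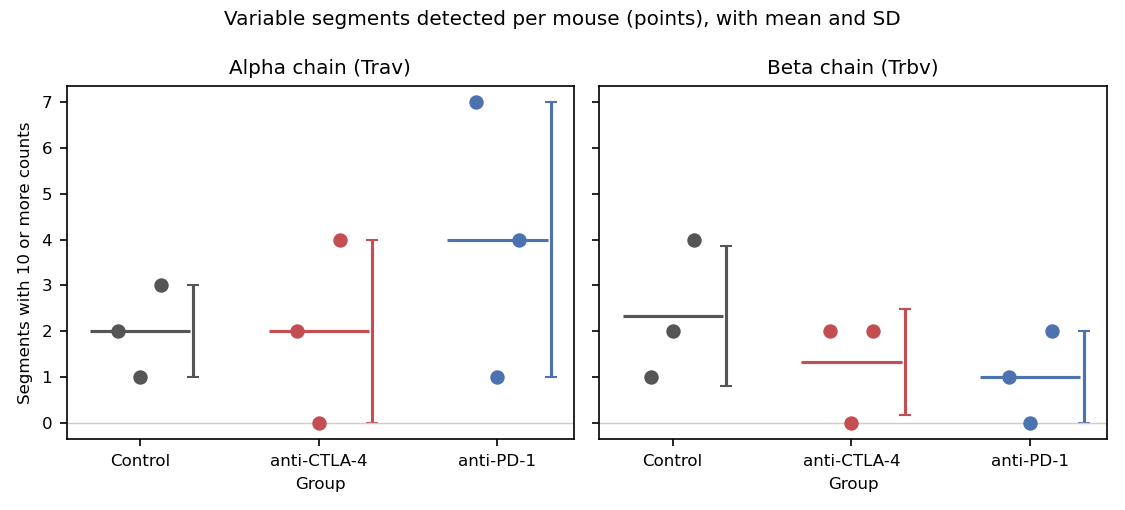
Number of variable segments with 10 or more counts (vertical axis) in each mouse, by group, for the alpha (left) and beta (right) chain; points are mice and bars are the group mean and SD. The anti-PD-1 mice range from 1 to 7 Trav segments and span all values of the Control mice.

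The concentration of use was measured by the effective number of segments, the inverse of the sum of squared shares, which is 1 when a single segment holds the whole chain. Libraries with fewer than 10 counts of the chain were left out, a choice made after their values were seen. The effective number of Trav segments was 1.35 ± 0.410 in Control (SD, n = 3), 1.94 ± 1.13 under anti-CTLA-4 (n = 2) and 2.16 ± 1.08 under anti-PD-1 (n = 3), and that of Trbv segments was 1.76 ± 0.686 (n = 3), 1.29 ± 0.301 (n = 2) and 1.01 ± 0.0173 (n = 2). The exact permutation test over the 3 groups gave p = 0.579 for Trav and p = 0.305 for Trbv, both 0.694 after adjustment. Single mice ranged from 1.002 to 3.15 effective Trav segments and from 1 to 2.35 effective Trbv segments.

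The summed level of each chain overlapped between the groups. The Trav total was 82.9, 91.6 and 73.0 CPM in the Control mice, 70.2, 0.0843 and 176 CPM under anti-CTLA-4, and 385, 178 and 66.5 CPM under anti-PD-1. The Trbv total was 28.7, 6.21 and 28.5 CPM in the Control mice, 82.8, 0.0281 and 89.4 CPM under anti-CTLA-4, and 45.9, 0 and 50.8 CPM under anti-PD-1. The highest Trbv total and 1 of the 2 lowest were thus both in anti-CTLA-4 mice. In bulk RNA, fewer cells using a segment and less of its RNA per cell cannot be told apart. On the scale log2(CPM + 0.1), the exact permutation test over the 3 groups gave p = 0.425 for Trav and p = 0.982 for Trbv (0.694 and 0.982 after adjustment). Without anti-CTLA-4 replicate 3, the exact permutation test for Trav gave p = 0.0357, unadjusted; the anti-CTLA-4 totals were then 70.2 and 0.0843 CPM. Without anti-CTLA-4 replicate 2, the exact permutation p was 0.496 for Trav and 0.561 for Trbv. All 18 differences between pairs of groups, over the 3 measures and 2 chains, had adjusted p between 0.9 and 1 by exact permutation tests, the lowest unadjusted p being 0.3. With 3 mice against 3 or 2 such a test cannot go below 0.1. The effective number of Trbv segments in anti-CTLA-4 against anti-PD-1 had 2 mice in each group, for which p cannot go below 0.333; that was the p found, the values being 1.08 and 1.50 against 1 and 1.02.

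For single segments, edgeR's quasi-likelihood test was fitted to all genes. Only 3 of the 163 segments, Trav12-2, Trbv13-2 and Trbv3, had enough counts in enough libraries to be among the 7858 genes tested. None of the 3 was called at an adjusted p under 0.05 in any comparison; of all genes tested, 0.369% were called for anti-CTLA-4 against Control, 0.0764% for anti-PD-1 against Control and 0.827% for anti-CTLA-4 against anti-PD-1. Those are 29, 6 and 65 genes, and without anti-CTLA-4 replicate 2 edgeR called 0, 1 and 6 of 9308 genes tested, again with none of the segments. With all 9 libraries, 0, 1 and 1 of the 3 segments in that order had an unadjusted p under 0.05. The share of all genes at that unadjusted p was not counted, and the percentages above are at an adjusted p. Trbv13-2 had an edgeR p of 0.0484 for anti-PD-1 against Control (adjusted p = 0.826), where 2 of 3 Control mice were above all 3 anti-PD-1 mice, and the counts of Trbv13-2 in the anti-PD-1 mice (0, 0 and 1) allow no fold. Trav12-2 was lower by 8.69 on the log2 scale under anti-CTLA-4 than under anti-PD-1 (an edgeR p of 0.0410, adjusted p = 0.345), where 1 anti-PD-1 mouse held nearly all counts. For Trbv3, anti-CTLA-4 exceeded Control by 6.17 on the log2 scale (adjusted p = 0.642), where 1 anti-CTLA-4 mouse held nearly all counts. The lower groups had 1, 1 and 14 counts of Trav12-2 (anti-CTLA-4) and 1, 0 and 42 of Trbv3 (Control), so the size of these folds is uncertain. DESeq2 also called none of the segments, with no adjusted p for 2 of the 3 tested.

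Most pairs of mice had no detected segment in common, and the sharing of other genes was not counted as a background. Of the 36 pairs of mice, 6 shared a detected Trav segment, 9 a detected Trbv segment and 13 a segment of either chain. By group, 2 of the 9 pairs within a group and 11 of the 27 pairs between groups shared a segment of either chain. Anti-CTLA-4 replicate 2 had no detected segment to share, and without its pairs the numbers were 2 of 7 and 11 of 21. The pairs within a group were Control replicates 1 and 2, through Trbv13-2, and anti-PD-1 replicates 1 and 3, through Trav9-4. Of the 5 Trav segments detected in more than 1 mouse, 4 were found in more than 1 group, and so were all 5 such Trbv segments. Trav12-2 among alpha segments and Trbv3 among beta segments were detected in all 3 groups, Trav12-2 under anti-CTLA-4 at 14 counts in a single mouse.

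The overlap of 2 mice, the sum over segments of the smaller of their shares, is 1 for identical use and 0 where nothing is shared. Its median was 0.00176 over 28 pairs for Trav and 0.00141 over 21 pairs for Trbv, and it stayed under 0.01 in 23 and 12 of these pairs. The highest values were 0.964 between anti-CTLA-4 replicate 1 and anti-PD-1 replicate 1, both led by Trbv3, and 0.667 between Control replicate 1 and anti-PD-1 replicate 2, both led by Trav12-2. Next were 0.607 between Control replicates 1 and 2 through Trbv13-2, 0.394 between Control replicate 2 and anti-PD-1 replicate 3 through Trbv20, and 0.310 between anti-CTLA-4 replicate 3 and anti-PD-1 replicate 3 through Trav4-3. Of these 5 highest overlaps, 4 joined mice of different groups, as did 37 of all 49 pairs with an overlap. The mean Trav overlap was 0.00425 within groups (7 pairs) and 0.0643 between groups (21 pairs), a difference of -0.0601 with p = 0.557, and the mean Trbv overlap was 0.122 (5 pairs) and 0.124 (16 pairs), a difference of -0.00184 with p = 0.933 (exact permutation tests, two-sided; both 0.933 after adjustment over 2 tests). Pairs share mice, so the tests permuted mice and not pairs.

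**Figure D3:**
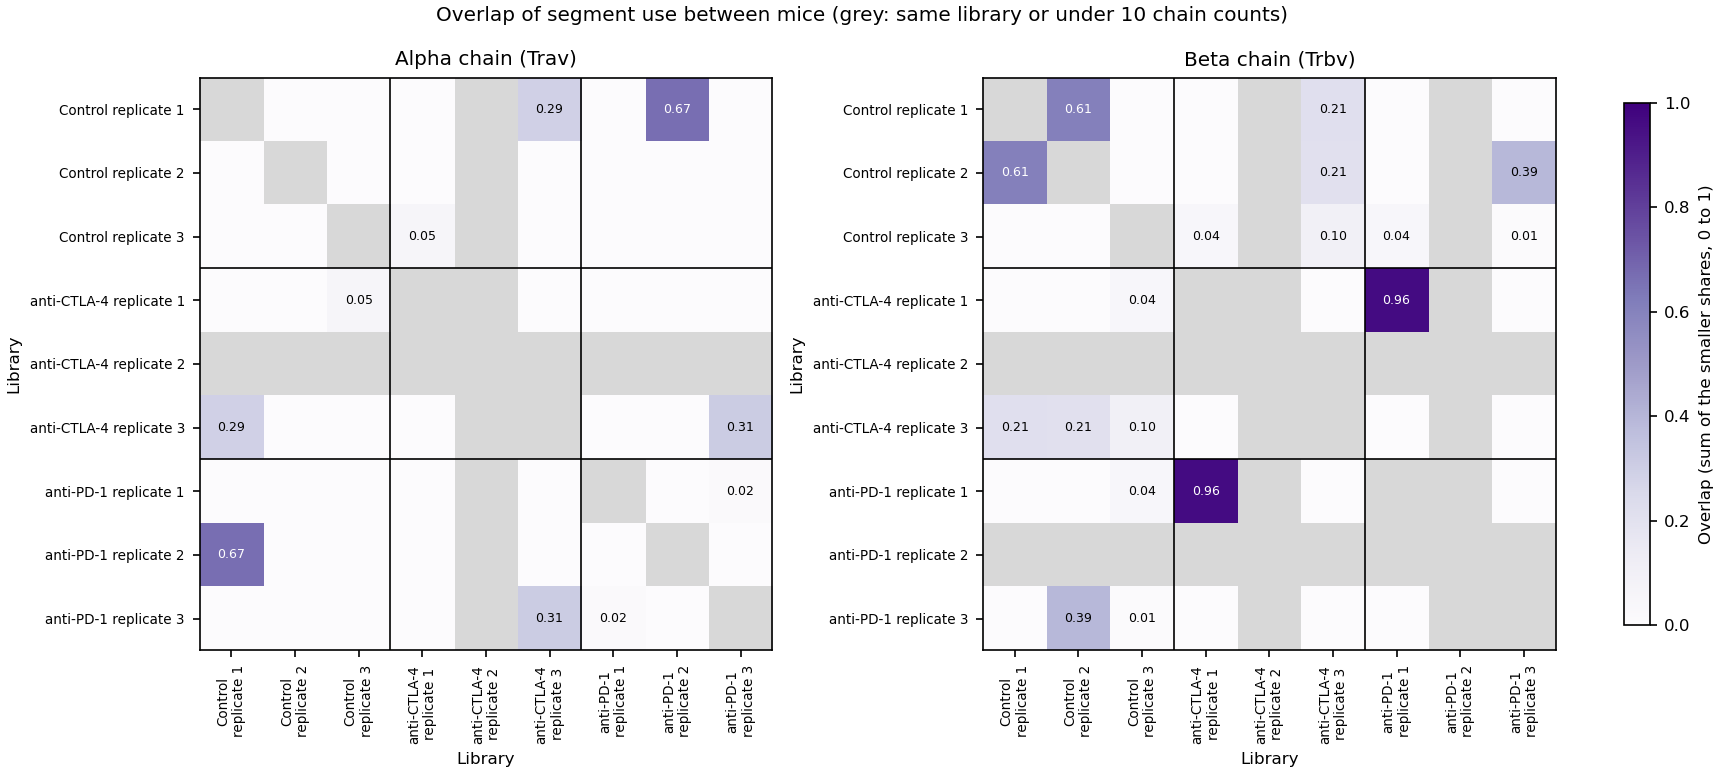
Overlap of segment use between every pair of libraries (rows and columns) for the alpha (left) and beta (right) chain, on a linear colour scale from 0 to 1; black lines separate the groups and grey cells have no value. The darkest cells, 0.96 for Trbv and 0.67 for Trav, lie outside the squares of pairs from the same group.

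Sharing in both chains was found for 2 of 36 pairs, neither within a group. Control replicate 1 and anti-CTLA-4 replicate 3 shared Trav12-2, Trav14d-3-dv8 and Trbv13-2, with overlaps of 0.292 for Trav and 0.212 for Trbv. Control replicate 3 and anti-CTLA-4 replicate 1 shared Trav5-4 and Trbv3, with overlaps of 0.0542 and 0.0416. The mice with the highest alpha overlap and those with the highest beta overlap did not share a detected segment of the other chain, anti-PD-1 replicate 2 having no beta counts. Counts per segment do not show the joining segment or the third loop of a transcript, so a shared segment is not a shared clone.

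The constant genes of both chains were read in every mouse. The alpha constant gene Trac had 8198 to 25408 counts in the 9 libraries and the beta constant genes Trbc1 and Trbc2 together 9111 to 17948. Trav counts ranged from 13.2% to 95.1% of the Trac counts in 8 libraries and were 0.0133% in anti-CTLA-4 replicate 2, counts being uncorrected for length. Trbv counts were 1.47% to 20.02% of the Trbc counts in 7 libraries, 0.00618% in anti-CTLA-4 replicate 2 and 0 in anti-PD-1 replicate 2. In these last 2 libraries Trbc had 16169 and 10787 counts, so the constant genes were read where the beta variable segments were not.

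**Figure D4:**
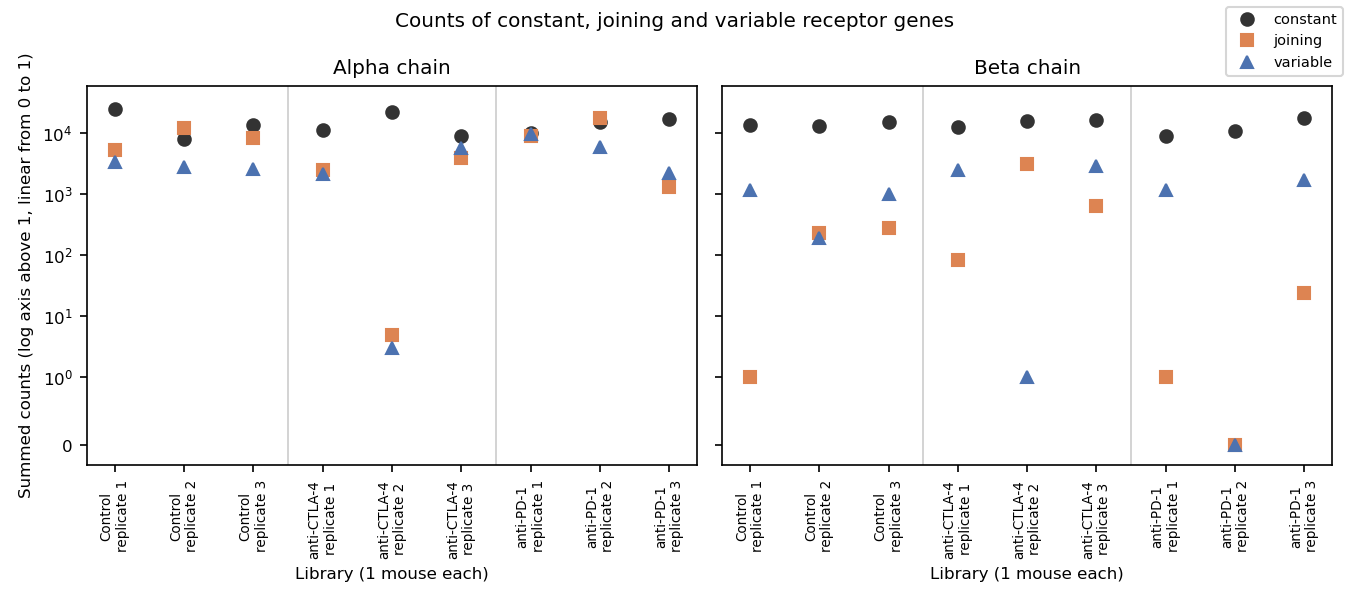
Summed counts of the constant (circles), joining (squares) and variable (triangles) genes of the alpha (left) and beta (right) chain in each library, on an axis that is logarithmic above 1. The constant genes lie between 8198 and 25408 counts in all 9 libraries while the variable genes fall to 3 (alpha) and 1 (beta) in anti-CTLA-4 replicate 2 and to 0 (beta) in anti-PD-1 replicate 2.

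Of the 60 alpha joining segments, 27 were detected, 11 in exactly 1 mouse and 16 in 2 or more, up to 6 mice for Traj18. Their number per library was 5, 11 and 14 in the Control mice, 2, 0 and 3 under anti-CTLA-4, and 8, 4 and 6 under anti-PD-1. The summed alpha joining counts exceeded those of Trac in Control replicate 2 (12192 against 8198) and anti-PD-1 replicate 2 (18056 against 15158), and lay below them elsewhere. Whether the joining counts came from rearranged receptor transcripts was not tested. Of the 14 beta joining segments, 6 were detected, 5 of them in 1 mouse. Anti-CTLA-4 replicate 2 had 3136 counts of Trbj2-6, which GENCODE lists as a pseudogene, beside its 1 Trbv count. The 2 diversity segments were at 0.

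The variable segments that mark T cells with invariant receptors had no counts: Trav11 and Trav11d, used by invariant natural killer T cells, and Trav1, used by mucosal-associated invariant T cells, had 0 counts in all 9 libraries. Trav11 and Trav11d have no stretch of read length that is absent from all other variable segments (0 of 268 and 0 of 267 windows of 76 bases), and reads with several alignments were not counted, so their 0 does not show that they were not used. All 344 windows of Trav1 are its own. Of the other genes listed with invariant natural killer T cells, the joining segment Traj18 was detected in 6 mice and Klrb1c had no counts. Zbtb16 had 1383 counts in anti-CTLA-4 replicate 3, 141 in Control replicate 3 and 70 in anti-CTLA-4 replicate 1. Cd1d1 had 0 to 4615 counts. Listed with mucosal-associated invariant T cells, the joining segment Traj33 had 837 counts in Control replicate 3, 469 in anti-PD-1 replicate 1 and at most 1 elsewhere. Mr1, from the same list, had 1930 and 818 counts in Control replicates 1 and 3. It had 1607 and 3784 in anti-PD-1 replicates 2 and 3, and at most 3 elsewhere. Whether the counts of these listed genes came from such cells was not tested.

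Of B cell genes, all 344 immunoglobulin variable genes were at 0, as were the plasma cell gene Jchain and the B cell genes Cd79a and Pax5. Control replicate 2 held 980 counts of Cd79b and 1003 of Ms4a1, 63.8 CPM in sum, and anti-PD-1 replicate 1 held 84 of Ms4a1; all other libraries had at most 3 of either.

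Some markers of other T cells moved with single libraries. Anti-PD-1 replicate 3, the only mouse in which Trav15-1-dv6-1 was detected, was also the only mouse with counts of the delta variable segment Trdv1 (1607) and held 4285 counts of the CD8 beta chain gene Cd8b1, against at most 3 elsewhere, with Cd8a at 0. Control replicate 1 held 2662 counts of the gamma constant gene Tcrg-C4, against at most 2 elsewhere. Of the 8 gamma delta T cell markers, Trdv4, Tcrg-C1, Tcrg-C2, Tcrg-V6, Tcrg-V4 and Sox13 were at 0. The delta constant gene Trdc, also among the 8, had 1 to 54 counts per library, the most being in Control replicate 1. The library with the Trdv1 counts held 10 counts of Trdc (0.292 CPM). The summed level of all 8 markers was 0.0604 to 65.4 CPM over the 9 libraries. The part of such cells in the segments found was not tested.

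The copies of the repeated alpha blocks were detected unequally. Segments without a letter accounted for 55 rows, 13 of them detected, and 81.3% of all alpha counts. The d copies accounted for 40 rows, 2 detected and 14.8% of counts, nearly all from Trav6d-4 and Trav14d-3-dv8, and the n copies for 34 rows, 3 detected and 3.93%. The authors' counts leave out reads with several alignments, so the sequence of each functional segment was compared with all other variable segments in windows of 76 bases, the read length. The share of windows found in no other segment had a median of 80.6% over the 46 functional segments without a letter, 0.191% over the 34 d copies and 0% over the 28 n copies, and 17 d and 15 n copies had no window of their own. Such copies cannot be counted from a single read lying within them.

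**Figure D5:**
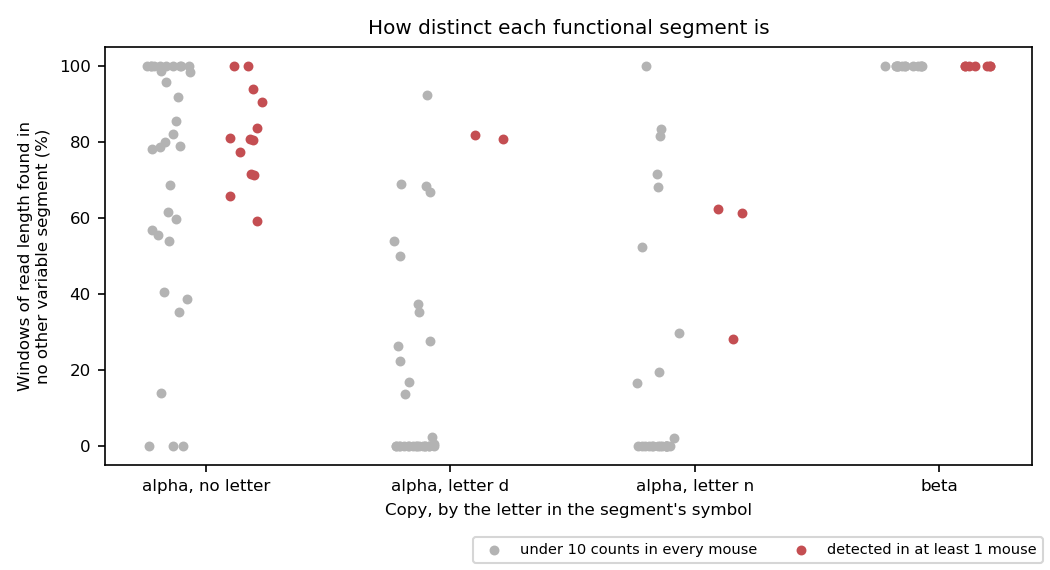
Share of the 76-base windows of each functional segment that occur in no other variable segment (vertical axis, percent), by copy letter for the alpha chain and for the beta chain; red points were detected in at least 1 mouse and grey points in none. The detected alpha segments lie between 28.2% and 100%, while 35 undetected ones lie at 0%.

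The 18 detected Trav segments had a median of 80.6% windows of their own (28.2% to 100%), and the 90 functional ones not detected had a median of 26.8%, with 35 at none. Trav13n-3, which had 915 counts in anti-PD-1 replicate 1, was the least distinct of those detected, at 28.2%, and differs from Trav13d-3 at 1 of the last 270 coding bases, so its counts are uncertain between the copies. Trav8-1 (59.3%; 3 mismatches to Trav8d-1) and Trav16n (61.3%; 3 to Trav16d-dv11) have near copies as well. Trav6-4 and Trav6d-4 each had 80.7% of windows of their own and were high in different mice, anti-CTLA-4 replicate 3 and Control replicate 3. Trav9-2 and Trav9-4 differ at 9 of 340 coding bases and were both high in anti-PD-1 replicate 1, at 5021 and 1422 counts. All 21 functional Trbv segments had 100% of windows of their own, and 14 of them were still not detected.

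Along the alpha locus (chromosome 14, 52427928 to 53977678), 2 of the 54 functional segments on the 5' side and 16 of the 54 on the 3' side were detected, the sides being split by rank. The median share of distinct windows was 8.02% on the 5' side and 70.0% on the 3' side. Among segments with at least 50% of windows of their own, 2 of 18 were detected on the 5' side and 15 of 37 on the 3' side. Along the beta locus (chromosome 6, 40891229 to 41558452) the numbers were 3 of 10 and 4 of 11.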

How the data were processed

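RNA of sorted tumour CD4 T cells from 9 mice, 3 per group, was sequenced by the authors. The deposited table holds whole-number counts per gene made by the authors. The submitters' processing notes name TopHat2, HTSeq, DESeq2 and GRCm38, with no versions or settings. Its 5 summary rows show that 32.9% to 40.7% of counts fell in genes and 27.1% to 42.0% in no annotated feature. A further 24.3% to 31.1% were alignments that were not unique and 0.631% to 1.13% were ambiguous. These rows stayed out of all totals.

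The segments and gene lists were chosen with earlier results of these data known. CPM are counts per 1000000 gene counts. Groups were compared by exact permutation tests over mice (scipy 1.17.1), with 0.1 CPM added before log2 for chain totals. The two-sided p for sharing is double the smaller tail. Genes were tested with edgeR 4.0.16 (R 4.3.3, limma 3.58.1; TMM factors, minimum count 10, group as the only term, Benjamini-Hochberg over all genes tested, threshold 0.05), and with DESeq2 1.42.0 as an alternative. The edgeR script was run on simulated counts with large changes, and the permutation tests on a small case with a known answer. These runs do not show how small a change in a segment could be found. Effective number and overlap used libraries with at least 10 chain counts. Named in the text were the 10 segments of each chain with the highest mean share, the leader of each library, and segments above 20% of a chain in 1 library. A further few were named after their values were seen. Symbols of 162 of 163 rows matched GENCODE M21, from whose transcripts the windows and sequences were read. The replicate numbers in the labels mark individual mice of each group, and the labels state no pairing of mice across groups. Other settings and each mouse left out in turn are given in the closing section.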

Additional observations from a re-analysis of the deposited data

How the results depend on the processing

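Of 217 differences under alternative settings whose reported value was not 0, 196 kept their direction and 21 reversed, and none crossed the threshold. Those between pairs of groups could not cross it, as their exact permutation p cannot go below 0.1 with so few mice. The difference in detected Trav segments between anti-CTLA-4 and Control, reported as 0, lay between -1 and 1 over 12 settings. Of 85 values of p over the 3 groups, 1 crossed the threshold, and all 51 counts of called segments were 0. With only the 2 groups compared, no segment was tested for anti-PD-1 against Control or for anti-CTLA-4 against anti-PD-1. Those counts could only be 0. The values below are differences of means, the first group minus the second, in segments, effective segments or log2(CPM + 0.1). Leaving out 1 library at a time, the difference in detected Trbv segments between anti-CTLA-4 and anti-PD-1 (0.333) ranged from -0.167 to 1. The effective number of Trav segments ranged from -0.216 to 1.38 for anti-CTLA-4 against Control (0.582), and from -1.02 to 0.576 for anti-CTLA-4 against anti-PD-1 (-0.222), where it was 0.00298 as the inverse of the leading share, 0.108 with families merged and 0.133 with libraries of 1 or more counts kept. The Trav chain total for anti-CTLA-4 against Control (-2.64) ranged from -4.51 to 0.434, the last without anti-CTLA-4 replicate 2, and its p over the 3 groups (0.425) from 0.0357 to 0.725. The Trbv chain total ranged from -2.41 to 2.31 for anti-CTLA-4 against Control (-0.817; 0.101 with 1 CPM added), from -3.01 to 1.48 for anti-PD-1 against Control (-1.49) and from -2.30 to 3.81 for anti-CTLA-4 against anti-PD-1 (0.675). The highest of each of these 3 ranges came without anti-CTLA-4 replicate 2, anti-PD-1 replicate 2 and anti-CTLA-4 replicate 2 in that order. Sharing of Trbv within against between groups (-0.00184) was 0.0184 by the Morisita-Horn index, 0.0971 with families merged, and from -0.147 to 0.0639 with 1 library left out. None of these passed a test but the p of 0.0357 without anti-CTLA-4 replicate 3, and the cause was not tested. The libraries with 1 or more counts kept and 1 CPM added were chosen after seeing the data.

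No pairing by replicate number was seen. Same-numbered libraries had correlations of deviations from -0.0345 to 0.0182, and libraries of different numbers from -0.0229 to 0.0296. Of the 9 libraries, 2 correlated best with their own number. With the replicate number as a block, edgeR called 0 segments in each comparison and 10, 1 and 12 of all genes, against 29, 6 and 65 without it, in the order anti-CTLA-4 against Control, anti-PD-1 against Control and anti-CTLA-4 against anti-PD-1. The p over the 3 groups with the block was 0.444 and 0.333 for detected Trav and Trbv segments, 0.611 and 0.167 for the effective numbers and 0.5 and 0.917 for the chain totals. Over all genes, DESeq2 called 558, 421 and 847, RLE factors 0 in each, and leaving out 1 library at a time 0 to 79, 0 to 5 and 6 to 145. No setting called a segment, though where no segment was tested, as stated above, none could be called. Without a filter on low counts 30 segments were tested and 0 were called, against 64, 2 and 98 of all 13608 genes. Of the 30 segments, 4, 4 and 7 had an unadjusted edgeR p under 0.05. The share of all genes at that unadjusted p was not counted, so these numbers have no background to be read against.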
